A study of Mus musculus with 29 samples.

Results

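In the chromatin of mouse retina, 1.63% of the ATAC-seq regions (1801 of 110715) were open in ON bipolar cells, OFF bipolar cells, blue cones and green cones and closed in rods. The regions, each with a deposited start and end 200 bp apart around a peak summit, were selected on the authors' peak lists. A population counted as open where the midpoint of the region lay in a peak of both of its replicate libraries and as closed where it lay in a peak of neither. Peaks were called in each library separately. Of 20744 regions that were open in the other 4 populations, 18304 had a peak in both rod libraries, 639 had one in a single rod library, and the 1801 regions closed only in rods had none, which was 8.68% of them. The same rule turned around found 1994 regions closed only in ON bipolar cells, 149 closed only in OFF bipolar cells, 128 closed only in green cones and 51 closed only in blue cones. With replicate 1 of every population left out, so that 1 peak sufficed for open, the number closed only in rods was 2794, and with replicate 2 left out it was 3483.

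Cells were sorted by fluorescence from adult retina. Bipolar cells came from mice heterozygous for a GFP cassette at the *Otx2* locus (Otx2-GFP+/-), with 1 sort for pan-BC and ON-BC and 2 for OFF-BC. A second reporter, YFP under *Grm6* control (Grm6-YFP+/+ in the labels), told ON-BC from OFF-BC, and the labels give it for the ATAC-seq pan-BC mice too, although the study's own sample list gives those mice without it. ATAC-seq used 2 libraries each of pan-BC (postnatal days 44 and 43), ON-BC (42 and 46) and OFF-BC (42 and 46), and RNA-seq used 3 each of pan-BC (47, 44 and 44), ON-BC and OFF-BC (43, 48 and 42 for both). Rods (Nrl-eGFP mice), blue cones (GFP-positive photoreceptors of Nrl-eGFP;NrlKO mice, which lack *Nrl* and serve as a surrogate for the rare *Opn1sw* cones) and green cones (Opn1mw-GFP mice) were all taken at day 56, and their libraries were made by the same laboratory for previous work. Rods and blue cones had 2 ATAC-seq and 3 RNA-seq libraries each, and green cones had 2 single-sort ATAC-seq libraries, the peaks of 2 double-sort libraries and no RNA-seq. Blue cones and rods thus share study and age, whereas bipolar cells differ from rods in class, study and age together, and these cannot be told apart. Blue cones are a mutant, and the loss of *Nrl* in them cannot be told apart from cone identity.

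ATAC-seq counts the sites that a transposase reaches, which are mainly promoters and enhancers free of nucleosomes. Rods are the most numerous neurons of the mouse retina, and their nuclei are inverted, with heterochromatin gathered in the centre and little lamin A. *Nrl*, a MAF-family factor, sets the rod fate over the cone fate and acts with *Nr2e3* and with *Crx*, a K50 homeodomain factor. Cones and rods detect light, and bipolar cells relay the signal of both, through ribbon synapses. Rod bipolar cells were among the cells sorted here, and the paper estimates that they form the larger part of the ON population. It also reports that BC5D, a rare ON bipolar type with little *Grm6*-YFP, was likely left out of both the ON and the OFF sorts.

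The sequences of 10 such regions are given from the RefSeq assembly GRCm38 (mm10), plus strand, 201 bases each, because the results below return to them. They were taken from the regions nearest to genes named below and overlap no annotated exon. Capitals mark exact matches, on either strand, to the K50 homeodomain letters TAATCC, the Q50 homeodomain letters TAATTA or TAATTG, the E-boxes CAGCTG and CAGATG, which basic helix-loop-helix factors bind, and the core of the CTCF motif.
Dpp6, chr5:26904494-26904694 (promoter of *Dpp6*, which encodes an auxiliary subunit of Kv4 potassium channels): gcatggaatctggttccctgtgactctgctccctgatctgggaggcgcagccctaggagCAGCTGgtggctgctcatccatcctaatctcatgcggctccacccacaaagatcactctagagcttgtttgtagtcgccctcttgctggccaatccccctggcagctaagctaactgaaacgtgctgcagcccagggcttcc
Klhl4, chrX:114474076-114474276 (promoter of *Klhl4*): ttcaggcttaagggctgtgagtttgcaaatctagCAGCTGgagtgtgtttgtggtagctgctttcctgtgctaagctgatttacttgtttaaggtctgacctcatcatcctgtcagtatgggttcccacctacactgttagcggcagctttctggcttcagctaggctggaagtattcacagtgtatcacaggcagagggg
Nova1, chr12:46610035-46610235 (distal, nearest to *Nova1*, a neuronal splicing factor): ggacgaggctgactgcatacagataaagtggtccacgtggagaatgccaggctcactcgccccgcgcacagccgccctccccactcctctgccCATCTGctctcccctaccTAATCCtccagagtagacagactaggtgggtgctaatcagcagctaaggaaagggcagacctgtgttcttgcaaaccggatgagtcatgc
Prickle2, chr6:92525810-92526010 (intron of *Prickle2*, a planar cell polarity gene): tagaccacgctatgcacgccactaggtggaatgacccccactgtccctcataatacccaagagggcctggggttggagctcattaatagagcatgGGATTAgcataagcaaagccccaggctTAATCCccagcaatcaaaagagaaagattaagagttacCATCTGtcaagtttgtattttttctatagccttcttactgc
Kcnma1, chr14:23560149-23560349 (intron of *Kcnma1*, the BK potassium channel): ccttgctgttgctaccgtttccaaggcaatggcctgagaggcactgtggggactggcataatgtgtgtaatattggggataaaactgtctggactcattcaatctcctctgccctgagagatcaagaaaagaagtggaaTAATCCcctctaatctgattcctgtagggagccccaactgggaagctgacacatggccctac
Trpm1, chr7:64163535-64163735 (intron of *Trpm1*, the transduction channel of ON bipolar cells): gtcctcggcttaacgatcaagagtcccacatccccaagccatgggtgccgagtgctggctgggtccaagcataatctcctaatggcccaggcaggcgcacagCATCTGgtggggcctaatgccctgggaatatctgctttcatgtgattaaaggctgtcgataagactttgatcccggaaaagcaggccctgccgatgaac
Grin2b, chr6:136130572-136130772 (intron of *Grin2b*, an NMDA receptor subunit): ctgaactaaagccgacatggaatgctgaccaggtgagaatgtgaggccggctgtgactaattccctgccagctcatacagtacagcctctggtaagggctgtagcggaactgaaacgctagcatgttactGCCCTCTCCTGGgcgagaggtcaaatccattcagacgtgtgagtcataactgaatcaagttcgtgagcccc
Rxrg, chr1:167637117-167637317 (intron of *Rxrg*, a nuclear receptor of cones): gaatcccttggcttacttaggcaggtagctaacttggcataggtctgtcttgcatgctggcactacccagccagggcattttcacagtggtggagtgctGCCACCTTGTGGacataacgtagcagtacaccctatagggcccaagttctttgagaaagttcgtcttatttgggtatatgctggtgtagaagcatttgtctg
Kcna5, chr6:126563949-126564149 (upstream of *Kcna5*, a Kv1 potassium channel): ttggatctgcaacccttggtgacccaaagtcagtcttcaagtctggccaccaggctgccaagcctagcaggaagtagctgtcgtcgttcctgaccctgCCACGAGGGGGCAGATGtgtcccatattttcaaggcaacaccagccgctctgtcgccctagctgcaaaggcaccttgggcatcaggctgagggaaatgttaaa
Cplx2, chr13:54325923-54326123 (near *Cplx2*, a complexin): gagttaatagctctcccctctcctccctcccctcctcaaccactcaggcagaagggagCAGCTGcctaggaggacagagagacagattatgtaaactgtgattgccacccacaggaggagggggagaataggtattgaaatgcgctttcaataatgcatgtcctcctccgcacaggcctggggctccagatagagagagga
K50 letters stood in the regions of *Nova1*, *Prickle2* and *Kcnma1*, E-boxes in those of *Dpp6*, *Klhl4*, *Nova1*, *Prickle2*, *Trpm1*, *Kcna5* and *Cplx2*, and the CTCF core in those of *Grin2b*, *Rxrg* and *Kcna5*. In the *Kcna5* region the E-box overlapped the CTCF core. A match is a description of the letters and does not show that a factor was bound.

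Counted reads per library ranged from 4176776 to 12345845 for ATAC-seq (9665199 and 10890548 in rods) and from 12329548 to 26266746 for RNA-seq. The labels fitted the markers: *Opn1sw* stood at 1108400 to 1302200 normalized counts in blue cones and *Grm6* at 13260 to 13835 in ON-BC, where a normalized count is the reads of a gene or region divided by 1 size factor per library. *Nrl*, the deleted gene, was at 486 to 764 in blue cones against 11476 to 16599 in rods. Transcripts of other cells were present: *Opn1sw* stood at 28147 to 50740 in pan-BC and at 4477, 4314 and 55813 in the 3 OFF-BC libraries, of which the third stood apart, with rods at 7389 to 7589.5 and ON-BC at 447 to 822. The summed level of 14 rod markers was 2274000 to 3132000 normalized counts in rods and 17960 to 74250 in the bipolar libraries. The 8 endothelial markers summed to 12210 to 14250 in OFF-BC, of which *Esam* alone gave 12160 to 14204. *Cldn5* stood at 0 to 4.41 there and *Cdh5* at 0. The paper gives *Esam* as an example of a gene specific to a bipolar subclass, so this sum is not counted as RNA of other cells. The 10 Muller glia markers summed to 13880 to 17250 in blue cones against 2150 to 3532 in rods, of which *Clu* alone gave 11761 to 14577 and 750 to 1424, while the same list summed to 8096 to 12790 in OFF-BC, 6587 to 7807 in ON-BC and 7305 to 8845 in pan-BC. The 8 microglia markers summed to 418 to 931 in blue cones against 63.1 to 109 in rods. The part of these transcripts in the results below was not tested.

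The regions closed only in rods were stronger in bipolar cells than in cones and stood near the floor in rods. Their median normalized count was 4.67 and 5.42 in the 2 rod libraries, 47.9 and 50.6 in blue cones, 45.3 and 49.3 in green cones, 83.5 and 70.1 in OFF-BC and 85.1 and 89.3 in ON-BC. These libraries chose the regions, so the values describe the choice and were not tested. In pan-BC, whose peaks the rule did not use, the medians were 76.0 and 91.8. Over all 110715 regions, the medians were 7.79 and 8.81 in rods and 29.6 and 31.9 in pan-BC. Regions open in all 5 populations were stronger in every library, at 206 and 194 in rods and 153 and 149.6 in blue cones. The rod level of the regions closed only in rods equalled that of the 743 regions open only in cones (4.67 and 5.42) and lay above that of the 8971 regions open only in bipolar cells (0 and 1.36).

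**Figure D1:**
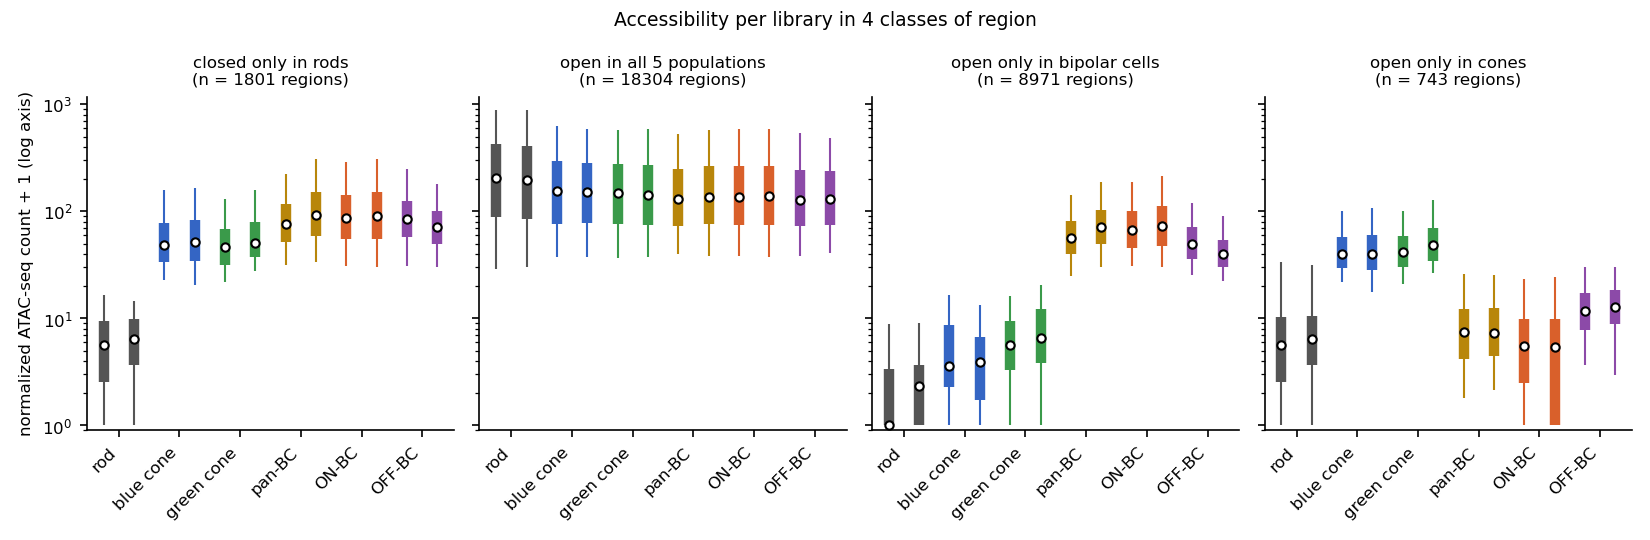
Normalized ATAC-seq count plus 1 on a log axis for each library (2 per population, coloured by population) in 4 classes of region; circles are medians, thick bars the 25th to 75th percentile and thin lines the 5th to 95th percentile. In the first panel the medians of the 2 rod libraries are 4.67 and 5.42 (before the 1 is added), below those of the 10 other libraries, which are 45.3 to 91.8.

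Few rod reads fell in these regions. The median region held 6 reads in rod library 1 and 8 in library 2, 69 regions held none in either, and 925 held fewer than 10 in both. The 2 rod libraries lay below all 8 libraries of ON-BC, OFF-BC, blue cones and green cones in 1786 of 1801 regions and overlapped them in 15. The lowest of the 8 exceeded the higher rod library by over 1 log2 unit in 89.7% of members, beside 9.18% of all regions. The rule used all of these libraries, so these counts describe the choice. A rod peak lay within 500 bp of the midpoint in 112 regions (6.22%), and in 41 it touched the 200 bp themselves. At the edge of the rule, the weakest peaks of the members near *Gpr176* and *Kif26b* had a −log10 q of 1.32 and 1.38, and the regions near *4930417O22Rik* and *Erich2* were left out for a single rod peak with a −log10 q of 1.51. In limma's fit of pan-BC against rods, 1712 of 1801 were called higher in pan-BC beside 40.3% of the 108448 regions tested, and since the rule used the rod libraries nothing is read from this count.

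Libraries that had no part in the choice had peaks at nearly all of these regions in bipolar cells and at fewer of them in green cones. Both pan-BC libraries had a peak at 1788 of 1801 regions (99.3%), and none of the 1801 lacked a peak in both. The share was 58.6% over all regions, 99.6% for regions open in all 5 populations, 97.6% for those open only in bipolar cells and 2.02% for those open only in cones. Pan-BC is of the same cell class as ON-BC and OFF-BC, in which the rule required peaks. A high share thus follows from the rule and is not particular to the members. The 2 double-sort green cone libraries both had a peak at 1199 regions (66.6%) and neither had one at 76. That share was 24.0% over all regions, 85.7% for regions open in all 5 populations and 47.8% for those open only in cones. Among the members it rose with the level in the single-sort libraries, from 33.2% of the fourth with the lowest green cone count (median 28.9) to 94.2% of the fourth with the highest (median 99.6). The double-sort libraries listed 43221 and 29410 peaks against 50585 and 38506 in the single-sort libraries, and the part of this in the lower share was not tested.

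The widest gaps between rods and the other cells were seen at promoters and far from them. The promoter of *Zfp608*, a zinc finger gene of neurons, had normalized counts of 324 and 283 in blue cones, 183 and 199 in green cones, 160.3 and 178 in OFF-BC, 208 and 180.1 in ON-BC and 163 and 246 in pan-BC, against 0 and 0 in rods. Not 1 read fell in it in either rod library, and the 10 other libraries were all at 160.3 or more. The promoter of *Slc24a2*, which encodes the sodium-calcium-potassium exchanger of cones, had 135 and 167 in blue cones, 128 and 142 in green cones, 181 and 158 in OFF-BC, 181 and 149 in ON-BC and 122 and 151 in pan-BC, against 0.779 and 1.36 in rods. At the *Dpp6* promoter printed above, the counts were 168 and 159 in blue cones, 209.8 and 218 in green cones, 260 and 193 in OFF-BC, 199 and 256 in ON-BC and 229.6 and 243 in pan-BC, against 3.12 and 2.71 in rods. The promoters of *Runx1t1*, a corepressor, and of *Klhl4* completed the 5 widest. *Runx1t1* was 0 and 0 in rods, 37.7 and 43.7 in green cones and 182 and 353 in ON-BC, and *Klhl4* was 0 and 0 in rod libraries, 37.6 and 41.2 in blue cones and 116 and 75.0 in OFF-BC. Both therefore leaned towards bipolar cells, whereas *Zfp608* was highest in blue cones.

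**Figure D2:**
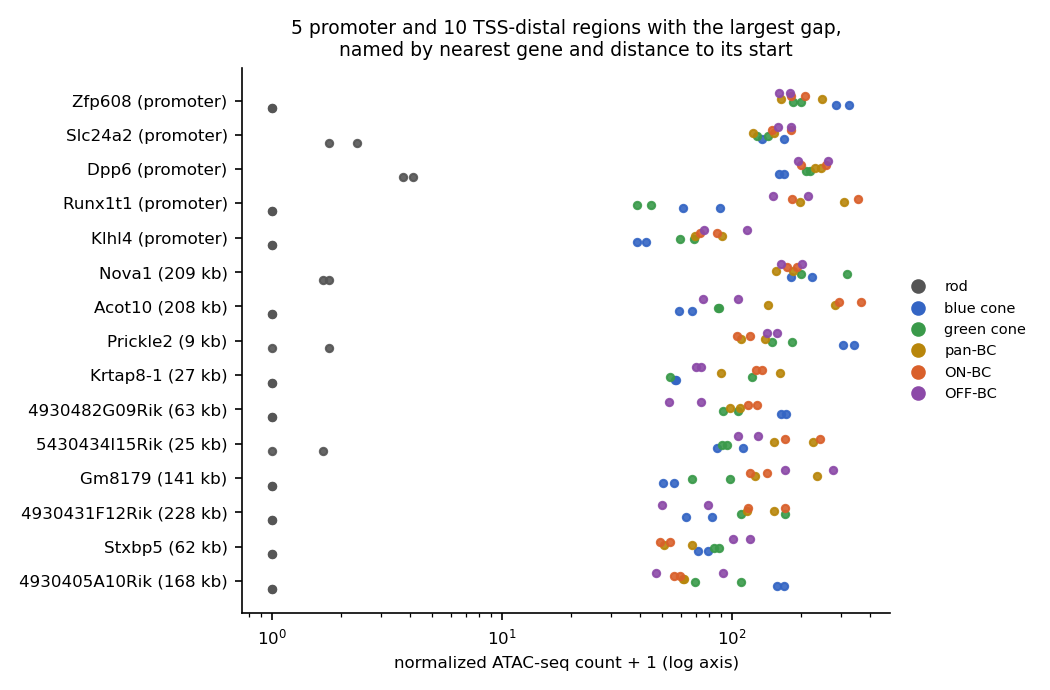
Normalized ATAC-seq count plus 1 (log axis) in each of 12 libraries at the 5 promoter and 10 TSS-distal regions with the widest gap between the lowest of the 8 open libraries and the highest rod library. Rods (grey) lie at 0 to 3.12 before the 1 is added, and the lowest point of any other library is the blue cone value of 37.6 at *Klhl4*.

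Of the 10 TSS-distal regions with the widest gaps, the first was the *Nova1* region printed above, 208632 bp from the gene's start, with 221 and 179.9 in blue cones, 199 and 315 in green cones, 201 and 163 in OFF-BC, 191 and 173 in ON-BC and 155 and 184 in pan-BC, against 0.779 and 0.678 in rods. The *Prickle2* intron region, with its pair of K50 letters and 1 E-box, reached 339 and 304 in blue cones, 149 and 182 in green cones and 119 and 104 in ON-BC against 0.779 and 0 in rods. The others were nearest to *Acot10*, *Krtap8-1*, *Stxbp5*, a syntaxin-binding protein, and 5 non-coding or predicted genes, and 7 of these 10 were intergenic. Members with little or no gap were also present. At the *Syne3* intron region the rod counts of 46.7 and 44.7 overlapped those of ON-BC (47.8 and 57.1) and OFF-BC (41.8 and 59.4), and at the *Bcar3* region rods at 15.6 and 19.0 overlapped green cones at 17.7 and 39.4. These met the rule only through the absence of a called rod peak.

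Among themselves, the regions ranged from cone-leaning to bipolar-leaning. The mean log2 level (of the normalized count plus 1) in ON-BC and OFF-BC exceeded that in blue and green cones by a median of 0.65. The 5th to 95th percentile was -0.82 to 2.22. Over all regions the median was 0.35 and this range -2.53 to 4.11, so the lean was not particular to the members. Regions open in all 5 populations had a median of -0.13. All 4 ON-BC and OFF-BC libraries lay above all 4 cone libraries at 730 regions and below them at 71. No such count was made over all regions, so it is not read as particular to the members. ON-BC differed from OFF-BC by a median log2 of 0.21, with 218 regions over 1 log2 unit higher in ON-BC and 65 over 1 unit lower. Blue and green cones differed by a median of 0.07, with 110 and 116 regions past 1 unit. Bipolar cells lay over 1 unit above cones at 638 members (35.4%) and over 1 unit below at 61 (3.39%), beside 39.7% and 22.3% of all regions. The shares over all regions were 22.8% and 17.3% for ON-BC minus OFF-BC and 7.18% and 20.1% for blue minus green cones. The rule used all of these libraries, so the values are a description, and study and age differ along with the split between bipolar cells and cones.

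In position, most of the regions lay outside promoters. Promoters, with the midpoint no more than 1000 bp before or 100 bp after a RefSeq transcription start site (TSS), made up 312 of 1801 (17.3%, 95% Wilson interval 15.6 to 19.1%), beside 14.9% of all regions, 57.1% of regions open in all 5 populations, 6.28% of those open only in bipolar cells and 3.23% of those open only in cones. Of the rest, 728 were intergenic, 663 intronic, 37 in coding exons and 61 in non-coding exons or UTRs. The median distance of the 1489 TSS-distal members from the nearest TSS was 39271 bp, against 28860 bp over all distal regions and 13187 bp for distal regions open in all 5 populations. Their median GC content was 51.2%, against 48.8% and 55.2%. Member promoters had 66.2% GC and an observed to expected CpG ratio of 0.704, against 66.7% and 0.863 of promoters open in all 5 populations. Members were spread over the autosomes, from 2.45% of the regions of chromosome 18 to 1.12% of those of chromosome 12, and made up 0.796% of the regions of the X chromosome. Within 10 kb of another member lay 168.

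Motif letters in the 201 bases were compared among TSS-distal regions only, since promoters differ in base composition. K50 letters (TAATCC), the core bound by CRX and OTX2, stood in 21.4% (95% Wilson interval 19.4 to 23.5%) of distal members, 24.6% of all distal regions, 19.2% of those open in all 5 populations, 14.7% of those open only in bipolar cells and 41.3% of those open only in cones. Members lay between the bipolar-only and cone-only regions. Q50 letters (TAATTA or TAATTG), the core of the larger homeodomain group that includes LHX4, gave 10.9% (95% Wilson interval 9.40 to 12.6%), against 12.8% of all distal regions, 11.1% of bipolar-only ones and 25.3% of cone-only ones. The E-box CAGCTG was found in 23.2% of members against 19.1% of all, and CAGATG in 27.0% against 25.0% of all and 38.6% of bipolar-only regions. The CTCF core, bound by the insulator protein, stood in 13.5% (95% Wilson interval 11.9 to 15.3%) of members, between 10.1% of all distal regions and 17.0% of those open in all 5 populations, in 13.6% of bipolar-only regions and in 1.25% of cone-only regions. The letters AAGTCA that NR2E3, a rod repressor of cone genes, can bind stood in 9.13% of members and 10.6% of all distal regions, and the MAF half-site letters TGCTGA in 19.8% and 19.2%. The AP-1 letters TGANTCA stood in 8.66% of members, 7.87% of all distal regions and 16.6% of cone-only ones, and the GC box GGGCGG, bound by SP and KLF factors, in 12.9%, 9.36% and 7.23%. The intervals cover counting error only, and shares of motifs with few letters move with base composition, which differed between these classes.

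**Figure D3:**
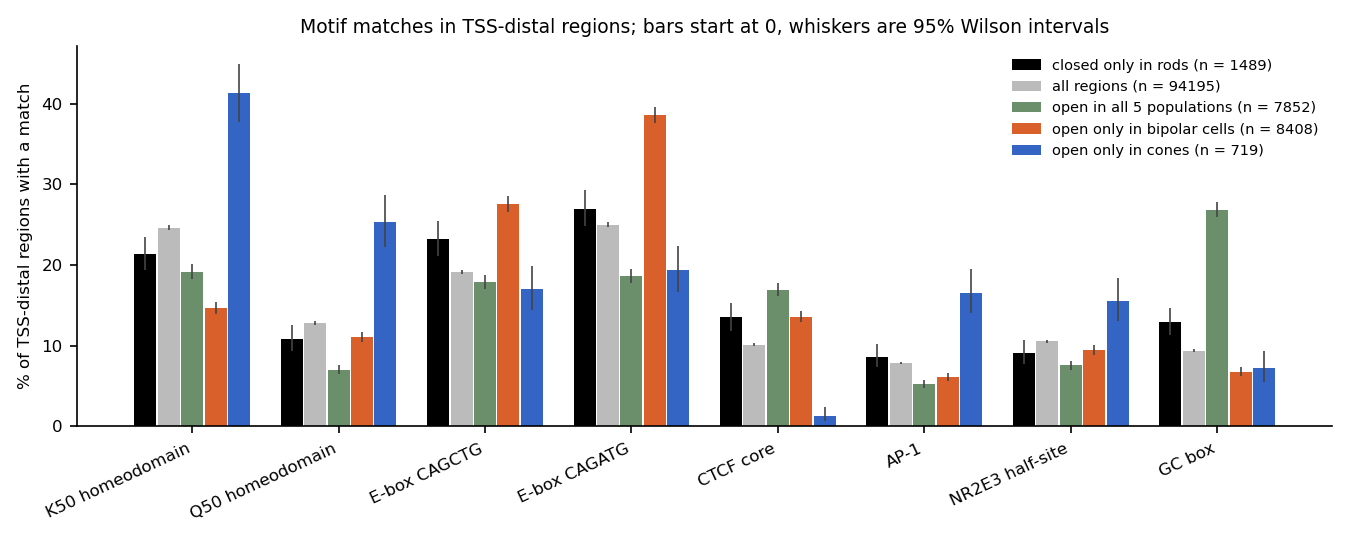
Share of TSS-distal regions with at least 1 exact match to each motif, for regions closed only in rods (black) and 4 comparison classes; bars start at 0 and whiskers are 95% Wilson intervals. Black bars lie between the bipolar-only and cone-only bars for K50 letters (21.4%), CAGCTG (23.2%) and CAGATG (27.0%).

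Within the members, the letters changed with the balance between cones and bipolar cells. When the 1801 were ordered by the log2 difference of bipolar cells minus cones and split into 4 equal groups, the most cone-leaning group (median -0.32) had K50 letters in 33.5% of its distal regions and the most bipolar-leaning group (median 1.72) in 17.7%, with the 2 groups between them at 17.1% and 16.7%. Q50 letters went from 16.1% to 6.71% and the AP-1 letters TGANTCA from 13.5% to 7.01%. The CTCF core went the other way, from 5.71% in the cone-leaning group to 15.3%, 18.9% and 14.0%. CAGCTG and CAGATG E-boxes stood at 24.9% and 25.5% in the first group and 25.3% and 28.4% in the last. These groups were cut from the accessibility values and the shares are a description with no test. Members with a CTCF core had a smaller contrast, with a median of 5.72 normalized counts in rods and 56.4 in the 8 other libraries, against 4.95 and 73.0 without one.

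RNA, which the rule did not use, was then compared for the genes with the nearest TSS. The 1801 regions had 1403 nearest genes, of which 1257 were found in the RNA table and 861 passed the filter on low counts. The 396 under the filter, nearest to 474 regions, were not tested, so the counts below cover the tested genes alone. The filter took all populations together, so a gene without RNA in rods was tested only where another population had it. This leans the counts towards higher than rods, also in the shares over all genes, which passed the same filter. Each contrast was tested by limma on log2 values (of the count as normalized, plus 1) against a 2-fold change, with Benjamini-Hochberg adjustment over 14024 genes. In blue cones, 336 of 861 (39.0%) were called higher than in rods, beside 11.3% of all genes tested, and 20 (2.32%) were called lower, beside 4.63%. In pan-BC, 539 of 861 (62.6%) were higher, beside 27.8%, and 71 (8.25%) lower, beside 15.8%. In ON-BC, 518 of 861 (60.2%) were higher, beside 26.2%, and 70 lower, beside 15.6%. In OFF-BC, 517 of 861 (60.0%) were higher, beside 27.1%, and 67 lower, beside 15.5%. The median log2 fold change was 1.07 in blue cones and 3.35 in pan-BC, against 0.0045 and 0.21 over all genes. Leaving out OFF-BC library 3, the one rich in *Opn1sw*, changed the number called in either direction in OFF-BC from 584 to 573. The labels do not say whether libraries came from separate mice, so that p-values measure the spread between these libraries. The 4 comparisons share the 3 rod libraries, and in sorted bulk samples fewer cells of a type and less RNA per cell cannot be told apart. All 3 rod libraries lay below all 12 others for 366 of these genes (42.5%), beside 17.6% of all genes, and above all 12 for 51 (5.92%), beside 18.8%.

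Genes with a member at the promoter, or with several members, were more often called higher than rods. For the 253 tested genes with a member at the promoter, 59.7% were higher in blue cones and 81.8% in pan-BC, against 30.4% and 54.6% for the 608 with TSS-distal members only. Of those 253, 13 were called in no comparison. Genes nearest to 1, 2 and at least 3 members had 34.5%, 44.3% and 79.6% higher in blue cones (n = 658, 149 and 54 genes), and 57.6%, 76.5% and 85.2% in pan-BC. Among genes with distal members only, the state of the gene's own promoter in rods went with a different count: where a region at it was open in both rod libraries, 23.5% of 332 were higher in blue cones and 35.5% in pan-BC, and where none was, 38.8% of 276 and 77.5%. Genes nearest to a region open in all 5 populations had 9.24% and 20.7% higher. Those nearest to a region open only in cones had 31.7% and 38.4%, and those nearest to a region open only in bipolar cells 16.9% and 47.9%. The blue cone share of genes with distal members only (30.4%) was thus near that of genes by cone-only regions. Neighbouring members can be summits of 1 shared peak. Genes can stand in several of these groups, and genes are not replicates, so the shares are given without a test.

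**Figure D4:**
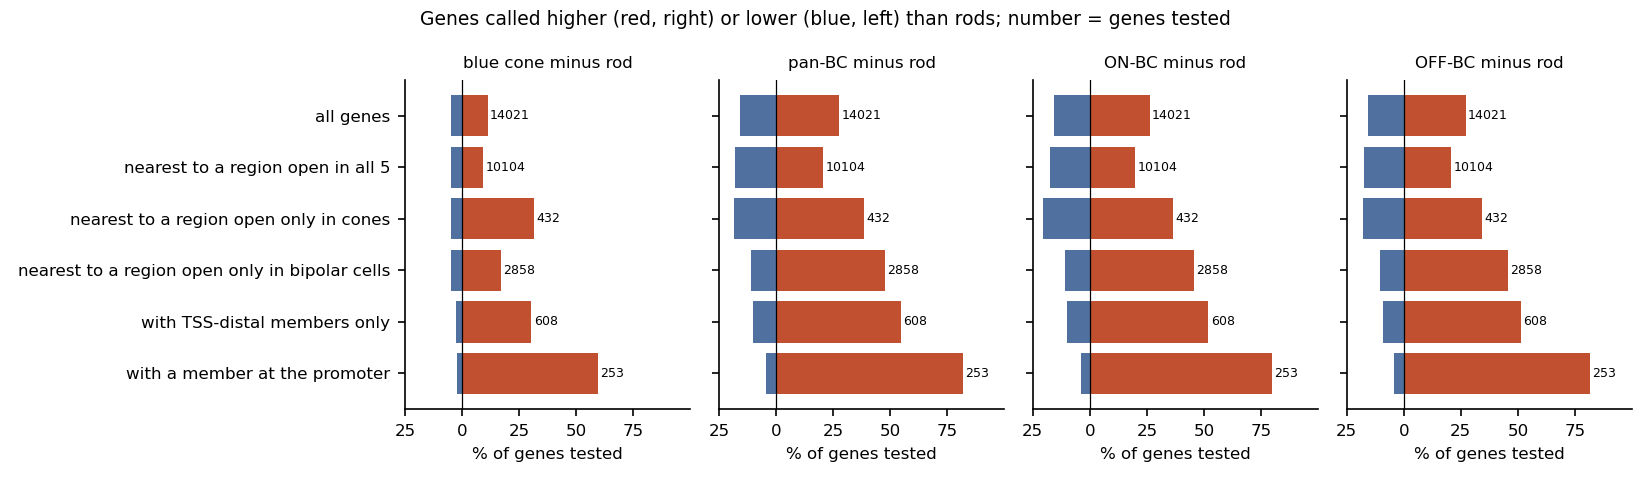
Percent of tested genes called higher (red, to the right) or lower (blue, to the left) than rods in each of 4 RNA-seq comparisons, for 6 groups of genes; the number beside each bar is the genes tested, where that of all genes leaves out rows whose symbol stands in the table more than once. The longest red bar of each panel is that of genes with a member at the promoter, at 59.7% in blue cones and 81.8% in pan-BC.

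*Kcnma1*, the pore subunit of the calcium-activated BK potassium channel, was nearest to the most members, with 9, all in introns between 111478 and 449355 bp from its TSS. Their rod counts ranged from 0 to 6.23 and their ON-BC counts from 50.8 to 344, and 5 of the 9 held K50 letters. Its RNA was at 51.4, 46.1 and 99.4 normalized counts in the rod libraries, 779.9, 636 and 854 in blue cones, 10633, 10129 and 6832 in OFF-BC, 14648, 17769 and 15422 in ON-BC and 19909, 18635 and 19816 in pan-BC. Rods were lowest without overlap, blue cones intermediate and bipolar cells highest, with log2 fold changes over rods of 3.58 ± 0.22 (SE) in blue cones (adjusted p = 5.1e-08 by limma) and 8.27 ± 0.22 in pan-BC (3.6e-14).

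*Zfp608* followed with 8 members, the promoter and 7 distal regions up to 557253 bp away, at rod counts of 0 to 14.0 and blue cone counts of 27.5 to 366. RNA of *Zfp608* was 0.970, 5.12 and 14.0 normalized counts in the rod libraries, 555, 446 and 474 in blue cones, 621, 727 and 683 in OFF-BC, 1423, 1650 and 1424 in ON-BC and 1712, 1565 and 1709 in pan-BC. The log2 fold change was 6.44 ± 0.44 in blue cones (limma, adjusted p = 2.1e-08) and 8.20 ± 0.44 in pan-BC (1.5e-10). *Diras2*, a small Ras-like GTPase of neurons, had 6 members with rod counts of 0 to 9.35, and its RNA was at 15.5 to 22.7 in rods, 794 to 832 in blue cones and 3549.6 to 4235 in OFF-BC. *Prickle2* had 5 members, 3 of them at separate promoters, and *Adcy2*, an adenylyl cyclase, had 5 with 1 at the promoter. *Adcy2* RNA was at 1381, 1376 and 1407 in blue cones, 1460.4, 1387 and 1451 in pan-BC and 956, 1018 and 1014 in OFF-BC, against 7.76, 6.15 and 6.48 in rods (limma log2 fold change 7.48 ± 0.11 in blue cones, adjusted p = 1.5e-16). *Prickle2* RNA was at 16.5, 16.4 and 41.1 in rod libraries, 2404, 1774 and 1615 in blue cones and 6302, 5411 and 4737 in OFF-BC.

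Of the other 3 genes with many members, 1 had almost no RNA and 1 differed from rods in blue cones alone. *Adgrl2*, the adhesion receptor latrophilin 2, had 5 members and RNA at 28.7 to 61.6 in rods, 154 to 172 in blue cones, 278 to 363 in OFF-BC and 3205 to 3352 in ON-BC. *Gramd3* had 5 members, all at least 22266 bp from its TSS and open in bipolar cells (ON-BC counts 37.3 to 84.9), and its RNA was called higher than in rods in blue cones (135, 156 and 169 against 12.6, 3.07 and 7.56, limma adjusted p = 3.6e-05), with 24.5, 7.06 and 9.79 in pan-BC (adjusted p = 1), and was not called in ON-BC or OFF-BC. *Klf4*, a zinc finger factor of epithelia and stem cells, had 5 members with pan-BC counts of 35.2 to 548, among the strongest named here, while its RNA did not exceed 7.56 normalized counts in any of the 15 libraries and did not pass the filter. Neighbouring members of *Gramd3*, of *Klf4* and of *Adcy2* had the same −log10 q in every open library, so summits of 1 peak can count as separate members. The nearest gene need not be the gene that a region serves, which was not tested.

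The 10 called genes with the widest blue cone difference were led by *Tnc*, which encodes the matrix protein tenascin C, at 1889, 1850 and 1528 normalized counts in blue cones against 4.85, 1.02 and 3.24 in rods. Its log2 fold change was 8.89 ± 0.41 (limma, adjusted p = 6.3e-11), and in pan-BC, at 22.3, 31.3 and 12.2, it was 2.54 ± 0.41. *Cngb3*, a subunit of the cyclic nucleotide-gated channel of cones, had its member at the promoter, with ATAC-seq counts of 67.3 and 62.9 in blue cones, 70.7 and 97.2 in green cones, 110.5 and 68.1 in OFF-BC, 37.3 and 58.6 in ON-BC and 51.2 and 62.7 in pan-BC, against 3.12 and 0 in rods. Its RNA was at 25343, 25444 and 25957 in blue cones, 2059, 1765 and 2154 in OFF-BC, 566, 552 and 605 in ON-BC and 90.2, 126 and 150.2 in rods, so that a cone channel gene was also above rods in bipolar cells (limma log2 fold change 4.04 in OFF-BC and 2.25 in ON-BC, adjusted p = 9.4e-12 and 8.4e-07). *Rxrg*, the retinoid X receptor of cones, was at 4179, 4430 and 4260.3 in blue cones, 13.6, 16.4 and 22.7 in rods, 7.22, 9.80 and 3.08 in ON-BC, with 17.9, 9.61 and 150.1 in OFF-BC, where the third library was again the highest. Its intron region printed above was at 35.8 and 38.1 ATAC-seq counts in ON-BC and 32.4 and 41.2 in blue cones.

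Several others of these 10 had most RNA in blue cones. *Wwc1*, a scaffold of the Hippo pathway, was at 5462, 5625 and 5764 in blue cones, 15.5, 33.8 and 17.3 in rods and 4.13, 0.980 and 0 in ON-BC, where it was called lower than in rods (limma log2 fold change -3.34 ± 0.67, adjusted p = 0.0041). *Ffar4*, a receptor for long-chain fatty acids, was at 327, 343 and 499 in blue cones and at most 7.72 elsewhere. *Abcb4*, a phospholipid transporter with a promoter member, was at 1121 to 1419 in blue cones, 48.1 to 65.1 in OFF-BC and 2.16 to 7.76 in rods. *Klhl4*, with the promoter printed above, was at 2544 to 3403, 183 to 324 and 6.79 to 24.9 in the same order. By contrast *Wscd2* overlapped between ON-BC (909, 826 and 747) and blue cones (721, 885 and 907), with rods at 14.6, 0 and 0 and OFF-BC at 14.5, 16.8 and 104, where its call was lost without library 3 (limma, adjusted p = 0.051). *Ccdc136* was at 16897 to 22413 in blue cones, 3099 to 3759.9 in pan-BC and 62.1 to 104 in rods, and *Bend5*, a BEN domain gene, at 272 to 350.1, 56.4 to 68.6 and 0 to 2.05.

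**Figure D5:**
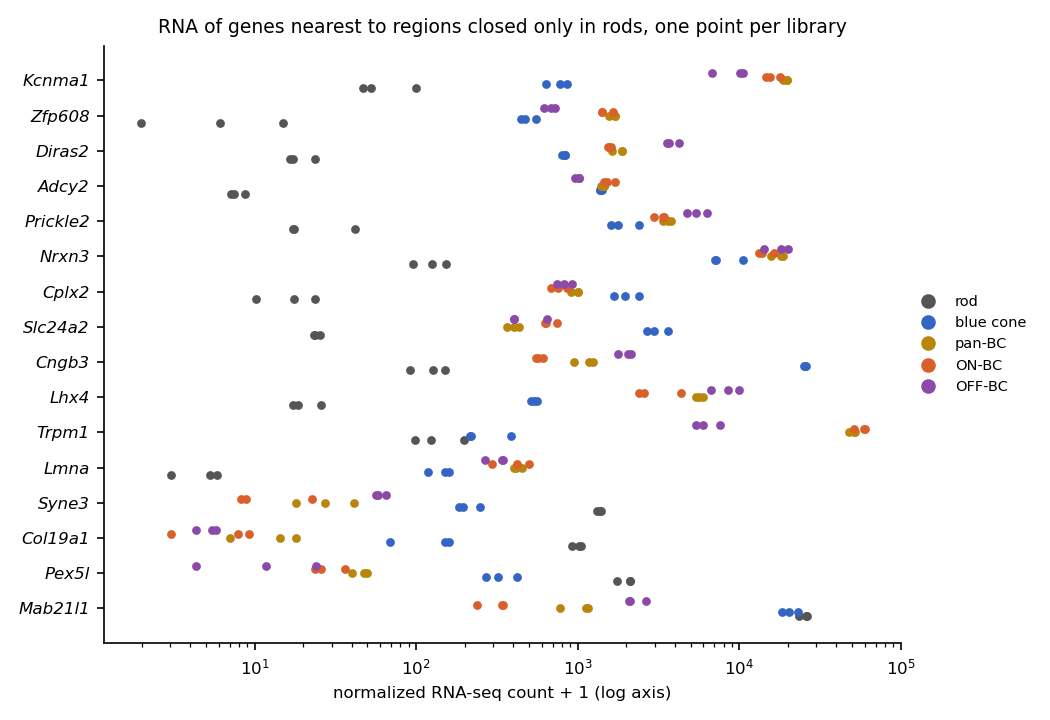
Normalized RNA-seq count plus 1 (log axis) of 16 genes nearest to regions closed only in rods, 1 point per library and 3 libraries per population. In the 12 upper rows rods (grey) are lowest, with *Trpm1* close to blue cones (97.0 to 197 against 214 to 386). In the rows of *Syne3*, *Col19a1*, *Pex5l* and *Mab21l1* rods are highest, with *Mab21l1* close to blue cones (23336 to 26179 against 18402 to 23082).

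Among the genes with the widest bipolar differences were receptors, channels and adhesion proteins. *Grin2b* was at 2359, 2430.1 and 2106 in pan-BC and 0, 0 and 1.08 in rods, and its ON-BC libraries (40.2, 29.4 and 1049.6) and OFF-BC libraries (1997, 682 and 666) were uneven, with ON-BC library 3 and OFF-BC library 1 the highest. *Emp1*, a membrane protein gene, showed the same 2 libraries, at 2.06, 0.980 and 254 in ON-BC, with 434, 4.81 and 3.31 in OFF-BC, with rods at 0 in all 3 libraries, and was called in pan-BC alone (545, 547 and 448, limma adjusted p = 2.1e-04, with no adjusted p from DESeq2). *Trpm1*, with 2 intron members, was at 59198, 59745 and 51663 in ON-BC libraries, 5930.2, 5394 and 7566 in OFF-BC, 219, 214 and 386 in blue cones and 97.0, 122 and 197 in rods (limma log2 fold change 8.73 ± 0.23 in ON-BC, adjusted p = 2.7e-14, and 0.98 in blue cones, adjusted p = 1). Its region printed above was at 102 and 122 ATAC-seq counts in blue cones and 189.6 and 225 in ON-BC. *Rgs7*, whose protein speeds the shut-off of the G protein of ON bipolar dendrites, was at 1613, 1390.4 and 1313 in ON-BC libraries, 378, 458 and 534 in OFF-BC, 53.4, 62.2 and 87.3 in blue cones and 4.85, 3.07 and 0 in rods, with promoter counts of 173 and 164 in ON-BC, 148 and 158 in blue cones and 4.67 and 5.42 in rods. *Chrm2*, a muscarinic receptor, was at 0 in all rod libraries and at 411, 510.4 and 395 in pan-BC, at least 143-fold higher when rods are set to 3 reads per library.

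Named from the OFF-BC comparison were *Slc16a7*, a monocarboxylate transporter (6403, 4865 and 4544, against 46.4, 49.0 and 32.8 in ON-BC and 3.88, 0 and 3.24 in rods), *Chrna6*, a nicotinic receptor subunit (8991, 9792 and 7838, with blue cones at 1574, 1482 and 1288 and rods at 19.4, 1.02 and 31.3), and *Epha3*, an ephrin receptor (4439, 4008 and 2768, with rods at 2.91, 2.05 and 0). Each was called higher than rods in OFF-BC (limma log2 fold changes 10.89, 9.65 and 10.65, adjusted p = 1.9e-12, 1.3e-09 and 5.8e-10). *Glra1*, the glycine receptor subunit, was at 2042 to 2670.1 in OFF-BC and 521 to 560.5 in ON-BC, *Rnf182*, a ubiquitin ligase, at 4760.4 to 7089 and 1200.5 to 1495, *Cnnm1* at 3463 to 3775 and 209 to 299.8, and *Fat4*, a giant cadherin, at 1365 to 2146 in OFF-BC and 0 to 2.05 in rods. *Nxph3*, a ligand of neurexins, was at 597 to 758 in OFF-BC with rods at 0, at least 224-fold higher by the same bound. Named from the ON-BC comparison were *Amigo2*, an adhesion protein (3232 to 3631 in ON-BC against 382 to 524 in OFF-BC, and 1.08 to 7.17 for rods), *Col4a2*, a basement membrane collagen (899 to 945, 35.8 to 83.9 and 0 to 1.94), *Fam135b* (1826 to 2607, 652 to 725 and 2.05 to 2.91) and *Csmd1* (259 to 463, 15.6 to 42.0 and 0). *Kcna5* was at 4152 to 4986, 2096 to 2633 and 7.17 to 18.4, *St7* at 602 to 830, 438 to 596 and 0 to 4.32, and *Gstm7*, one of a family of near-identical glutathione transferases whose reads can be shared, at 609 to 778, 572 to 745 and 0 to 3.24. The non-coding 4930563F08Rik and 9530091C08Rik lie inside *Auts2* and *Rora*, and their counts (343 to 477 and 1285 to 1798 in pan-BC) cannot be told from those genes without strand.

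A smaller number of genes near a region closed only in rods were lower than in rods. *Col19a1*, a collagen gene, was at 1048, 1024 and 917 in rod libraries, 149.7, 159 and 68.1 in blue cones and 8.25, 6.86 and 2.05 in ON-BC, a log2 difference of -3.07 ± 0.45 in blue cones and -7.36 ± 0.45 in ON-BC (limma, adjusted p = 0.0014 and 1.0e-09). The *Col19a1* region was unusual, with 29.4% GC against a median of 51.2% for distal members. Its −log10 q was 149 to 329 in ON-BC, OFF-BC and green cones and 17.6 and 49.0 in blue cones. Whether reads from elsewhere in the genome were placed there was not tested, so its peaks are to be read with caution. *Syne3*, which encodes nesprin-3 of the nuclear envelope, was at 1389, 1321 and 1367 in rod libraries, 247, 195 and 182 in blue cones and 7.22, 7.84 and 21.5 in ON-BC, and its region was described above as one whose rod counts overlapped the others. *Pex5l*, whose protein binds HCN channels, was at 1755 to 2099 in rods, 269 to 419.7 in blue cones and 3.35 to 23.2 in OFF-BC, *Tec*, a tyrosine kinase, at 119.8 to 136, 0 to 6.83 and 0 in all 3 OFF-BC libraries, and *Tcp11* at 437 to 554, 10.6 to 36.9 and 8.83 to 12.3. None of the regions of these 5 was at a promoter. With DESeq2 in place of limma the blue cone call of *Tec* was lost (adjusted p = 0.079). *Mllt3*, a reader of acetylated histones, was called lower in blue cones and in no bipolar population (82.0 to 101 against 827 to 1013 in rods and 617 to 637 in pan-BC), and so was *St6galnac5*, a sialyltransferase (6.66 to 18.1, 223 to 257 and 196 to 260.3). 4921511C10Rik was at 3.01 to 3.70 in blue cones and 79.9 to 98.3 in rods. The others were called lower in bipolar cells and not in blue cones: *Ankrd33*, a photoreceptor cofactor, at 8717 to 9597 in rods, 18088 to 21262 in blue cones and 41.0 to 81.3 in ON-BC, *Mab21l1*, an eye development gene, at 23336 to 26179, 18402 to 23082 and 238 to 346, *Rspo2*, a Wnt agonist, at 52.4 to 74.8, 154 to 275 and 0 to 1.03, *Rreb1* at 313 to 380.4, 454 to 806 and 2.05 to 11.8 and *Bcar3* at 455 to 509, 476 to 545 and 9.80 to 28.7.

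Counts over lists of genes were as follows. Over all tested genes, 6.14% were nearest to a member. The calls cover genes nearest to a member, so they stand beside the shares of all 861 such genes. Those called higher than rods were 39.0% in blue cones, 60.0% in OFF-BC, 60.2% in ON-BC and 62.6% in pan-BC. The lists hold few genes, and no count is read as particular to a list. Of 94 synaptic and cell adhesion genes, 18 were nearest to a member and tested, with 43 regions between them. Called higher than rods were 13 in blue cones, 17 in OFF-BC, 15 in ON-BC and 17 in pan-BC, and none was called lower. The presynaptic receptor *Nrxn3* had 4 members and RNA at 95.1, 125 and 151 in rod libraries, 10521, 7175 and 7126 in blue cones and 18564, 15643 and 18200 in pan-BC. *Nrcam*, an immunoglobulin adhesion protein with 4 members, was instead led by blue cones (7975, 7666 and 7556, against 641, 591 and 767 in pan-BC and 61.1, 79.9 and 74.6 in rods). *Cntn1*, a contactin, was at 949 to 1154 in blue cones, 3148 to 3715 in OFF-BC and 34.8 to 65.9 in rods, and *Cdh13*, a cadherin, at 27.4 to 65.3, 27.9 to 59.6 and 0 to 1.08. All 4 were called higher than rods in blue cones (limma log2 fold changes of 6.05, 6.74, 4.58 and 5.12).

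Of 59 potassium channel genes, 14 were nearest to 26 members and 10 were tested. Those called higher than rods were 6 in blue cones, 9 in OFF-BC, 8 in ON-BC and 9 in pan-BC, with none lower. Beside *Kcnma1*, *Kcnd3*, a Kv4 channel, was at 0 to 4.32 in rods, 105 to 129 in blue cones and 2022 to 2310.3 in OFF-BC, and *Kcnab1*, a beta subunit of Kv1 channels with 3 members, at 16.5 to 50.8, 1631 to 1876 and 251 to 517. *Kcne2*, an accessory subunit with its member at the promoter, was at 109, 86.0 and 143 in rod libraries, 7532, 8341 and 11397 in blue cones, 6194, 5351 and 5639 in ON-BC, with 270.5, 386 and 1585 in OFF-BC, where the third library, rich in *Opn1sw*, was the highest. Of 27 sodium and calcium channel genes 1 was near a member, *Cacna2d1*, a calcium channel subunit, at 4.32 to 7.17 in rods, 18.2 to 50.4 in blue cones and 2416 to 2994 in OFF-BC (limma log2 fold change 2.40 ± 0.27 in blue cones, adjusted p = 5.0e-04).

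Of 39 genes of the ribbon synapse and transmitter release, 8 were near a member, and 2 in blue cones, 6 in OFF-BC, 6 in ON-BC and 6 in pan-BC were called higher. *Cplx2*, a complexin that clamps vesicle fusion, was at 16.5, 9.22 and 22.7 in rod libraries, 1952, 2402 and 1674 in blue cones and 744, 825 and 926 in OFF-BC. *Cadps*, a priming factor of dense-core vesicles, was at 30.1, 28.7 and 56.2 in rod libraries, 105, 105 and 194 in blue cones and 12550, 14830 and 11233 in OFF-BC, *Unc13c* at 2.91 to 31.3, 33.1 to 87.3 and 1834 to 2459 and *Stx1a* at 0 to 8.65, 10.4 to 41.4 and 147 to 194. Of these 3, *Cadps* was called higher in blue cones and the others were not (limma log2 fold changes 1.79, 1.79 and 2.25, adjusted p = 0.015, 0.37 and 0.18). The *Cadps* call was lost without blue cone library 3, rod library 1 or rod library 2 (limma, adjusted p = 0.10, 0.077 and 0.087). The receptor genes near a member were *Gria1* and *Grin2b* of 35 glutamate receptor genes and *Glra1* and *Gabbr2* of 22 for GABA and glycine, and all 4 were called higher by limma in the 3 bipolar populations and not in blue cones, although DESeq2 gave no adjusted p for *Grin2b* there. *Gria1* was at 6.15 to 30.3 in rods, no more than 27.3 in blue cones and 3137 to 3274 in pan-BC, and *Gabbr2*, with both of its members at promoters, at 0 to 1.08, 2.26 to 7.40 and 133 to 150.3.

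Of 65 transcription factor genes of photoreceptors and bipolar cells, 13 were near 17 members, with 5 in blue cones, 8 in OFF-BC, 10 in ON-BC and 10 in pan-BC called higher than rods and none lower. *Lhx4*, a Q50-type LIM homeodomain gene with 2 members, was at 17.5, 16.4 and 24.9 in rod libraries, 561, 539 and 511 in blue cones and 8534, 9971 and 6657 in OFF-BC. *Zeb2*, a repressor, was at 10.2 to 33.5 in rods, 234 to 301 in blue cones and 911 to 1162 in pan-BC, and *Zfhx3*, a zinc finger homeodomain gene, at 22.5 to 35.7, 338 to 477 and 2211 to 2766. Among 63 axon guidance genes, 10 were tested and 3 in blue cones, 9 in OFF-BC, 10 in ON-BC and 10 in pan-BC were higher. *Epha5* was at 0 to 6.48 in rods, 155 to 227 in blue cones and 367 to 507 in pan-BC, *Robo2*, a Slit receptor with 4 members, at 7.56 to 15.5, 65.3 to 116 and 1056 to 1186, and *Sema5b*, a semaphorin, at 9.22 to 14.0, 50.3 to 114 and 151 to 204.

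Of 59 genes of nuclear architecture and chromatin, 5 were near a member, of which 3 in blue cones, 3 in OFF-BC, 3 in ON-BC and 3 in pan-BC were higher and 2 (*Chd7* and *Hdac9*, the second named after its values were seen) lower in each bipolar population. *Lmna*, which encodes lamin A and C of the nuclear lamina, was at 4.85, 2.05 and 4.32 in rod libraries, 118, 158 and 150.2 in blue cones and 412, 452 and 404 in pan-BC (limma log2 fold change 4.96 ± 0.26 in blue cones, adjusted p = 1.2e-09). *Tet1*, an enzyme that oxidises methylated cytosine, was at 23.3, 19.5 and 20.5 in rod libraries, 452, 292 and 211 in blue cones and 1199.8, 942 and 1153 in pan-BC, and *Chd5*, a remodeller of neurons, at 24.6 to 51.9, 202 to 251 and 883 to 918. *Chd7*, a related remodeller, showed no called difference between rods (5852 to 6792) and blue cones (7415 to 8326, limma adjusted p = 1) and was called lower in pan-BC (575 to 772).

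Over all tested genes, 6.14% were nearest to a member, and the counts of cell type markers are given beside that share. None of 14 rod markers and none of 20 genes of rod phototransduction and the outer segment was nearest to a member. Of 20 genes of cone phototransduction 2 were, both called higher than rods in all 4 comparisons. Of 14 cone markers 3 were (*Cngb3*, *Slc24a2* and *Rxrg*), and of 14 bipolar markers 2 (*Trpm1* and *Lhx4*). *Slc24a2* RNA was at 22.3, 24.6 and 22.7 in rod libraries, 3637, 2984 and 2704 in blue cones, 744, 626 and 639 in ON-BC, with 401, 405 and 646 in OFF-BC. No gene of the lists for Muller glia, horizontal cells, endothelium and microglia (10, 6, 8 and 8 genes) was nearest to one. *Gad1*, of 10 amacrine markers, was at 55.1 to 71.3 in pan-BC and 0 to 2.16 in rods, and of 10 ganglion cell markers *Pou4f1* was at 114 to 157 in blue cones, 1.01 to 8.56 in pan-BC and 0 to 2.91 in rods and *Thy1* at 76.4 to 129 in ON-BC and 0 in rods and blue cones.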

How the data were processed

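ATAC-seq reads had been aligned by the authors to GRCm38/mm10 with Bowtie2 and filtered with SAMtools and Picard (2.19.0), fragments over 150 bp had been removed, and peaks had been called in each library with MACS2 (2.1.1). RNA-seq reads had been aligned with STAR and counted with HTSeq. Counting strand is not given in the sources used here. The deposited signal values are reads per region or gene divided by 1 size factor per library by the authors, and the deposited peak lists give a score, a fold enrichment (a ratio) and −log10 p and q values, of which the intervals and −log10 q were used. All values above 0 (100%) were whole multiples of 1 read within 0.01, and reads were recovered from them. The step of RNA pan-BC library 2 was too near 1 for the automatic check of whole reads.

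Groups followed the labels. Regions were classed by peaks as the opening states and annotated with the RefSeq genes of GRCm38. The nearest gene was that of the nearest TSS. Of 1403 nearest genes, 1257 were matched to the RNA table, 1204 of them by symbol. Contrasts with rods were tested with limma (3.58.1) on log2 of the normalized count plus a pseudocount of 1, against a log2 change of 1, at an adjusted p (Benjamini-Hochberg) of 0.05, after a filter on low counts that kept 14024 of 24062 genes and 108448 of 110715 regions. All groups of an assay entered 1 fit. edgeR (4.0.16) and DESeq2 (1.42.0) on recovered reads were alternatives, with other pseudocounts, scaling, filters and peak rules. The fit was tested on simulated data. The libraries of each population did not deviate together with the same-numbered rod libraries (r from −0.04 to 0.08), so the numbers were not taken as pairs in the contrasts with rods. No replicate pair agreed within sampling noise. Named genes were, per contrast, the 10 called genes furthest above and the 5 furthest below rods, the 8 genes with the most members, and the 4 of each list with the widest blue cone change. Named regions were the 5 promoter and 10 distal members with the widest gap, the regions of named genes and those at the edge of the rule. The members, the lists and these rules were chosen with earlier results of these data known. Table columns of other samples numbered 0. Intervals and floors cover counting error only.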

Additional observations from a re-analysis of the deposited data

How the results depend on the processing

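Of 115 recomputed values, 102 stayed within the limits set for each (1.5 times a count, or the interval of a share), and 13 moved. Counting only promoter members lowered the genes called in either direction to 156 from 356 in blue cones, 217 from 584 in OFF-BC, 212 from 588 in ON-BC and 218 from 610 in pan-BC, which follows from the fewer genes. With 1 library of each population left out, 2794 to 3483 regions were closed only in rods. The share with both double-sort green cone peaks was then 52.2 to 55.7%, the share with both pan-BC peaks 97.1 to 97.3%, and the share of all members with a CTCF core 12.7 to 14.4% in place of 11.9%. At a −log10 q of at least 5, 1479 regions remained in the class and the double-sort share was 57.0%. With double-sort green cones in place of single-sort ones the class held 1348 regions, 20.7% of which had K50 letters in place of 18.4%, and the double-sort share is then complete by construction.

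With the replicate block, 354 genes were called in blue cones, 583 in OFF-BC, 585 in ON-BC and 609 in pan-BC, and 1710 regions in the ATAC-seq comparison of pan-BC with rods. edgeR on recovered reads called 393, 613, 606 and 637 genes in the same order. TMM factors moved the median of all genes by at most 0.08 on the log2 scale. The low rod values rest on few reads, since 925 regions held fewer than 10 rod reads in each library. The rod libraries were nevertheless deeper (9665199 and 10890548 counted reads) than any ON-BC, OFF-BC, blue cone or single-sort green cone library (at most 8058443).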
